A study of Homo sapiens with 6 samples.

Results

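Tagged double-strand breaks were described for the off-target sites of 6 guide RNAs that lie inside long protein-coding genes. A site was a member when its listed position on chromosomes 1 to 22 or X fell between the annotated start and end of a protein-coding gene of 250 kb or longer. Sites inside PKLR (chromosome 1, 155289293 to 155308654, hg38), the gene that all guides target, were left out. The rule used positions and gene lengths and no counts. It found 219 member sites among 1616 off-target sites on these chromosomes: 69 of 448 for SG1, 75 of 533 for SG2, 3 of 49 for SG3, 64 of 551 for SG4, 1 of 7 for SG7 and 7 of 28 for SG8. They lay in 179 of the 998 genes of this length.

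Long human genes owe their length mainly to introns, so most positions between their ends are not coding sequence. Many of them encode proteins of neurons, such as adhesion molecules, receptors and channels, and several of the longest coincide with common fragile sites, where chromosomes tend to break when replication is slowed. In GUIDE-seq, a short double-stranded tag is joined into breaks made by a nuclease, and reads that carry the tag mark where the cuts were. A break in an intron is often repaired without altering the protein, whereas one in an exon can disrupt the reading frame. The gene table used here gives only gene ends, so exons, introns and UTRs were not told apart, and the bases at the sites were not analysed here.

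All 6 samples were HEK293 cells, a transformed human embryonic kidney line, that stably express Cas9. Each received 1 guide (SG1, SG2, SG3, SG4, SG7 or SG8), made of a crRNA XT and a tracrRNA, together with the double-stranded tag, by nucleofection. Each guide had 1 library, no untreated or tag-only library was analysed here, and no difference between guides has a replicate check. Total listed counts ranged from 4079 for SG7 to 79227 for SG4. The count of a site is the whole number that the authors deposited for it, and the sources used here do not say whether it counts reads or molecules. To set guides side by side, each count is also given as a percent of the same guide's PKLR count, that of its most counted site inside PKLR. The line carries altered chromosome numbers, and copy number was not analysed here, so more copies of a gene and more cutting per copy cannot be told apart.

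The genes of 250 kb or longer held fewer sites than their share of sequence, while shorter protein-coding genes held more. Long genes made up 16.4% of the sequence from the first to the last gene annotated on each chromosome and held 13.6% of off-target sites (exact Clopper-Pearson 95% interval 11.9 to 15.3%). Shorter protein-coding genes made up 25.2% of that sequence and held 38.6% of the sites (36.2 to 41.0%). Sequence outside protein-coding genes made up 58.4% and held 47.8% (45.4 to 50.3%). Stretches of the sequence where reads cannot be placed were not taken out of these shares or of the densities below. Intervals of site shares and densities treat sites as independent and cover counting error only. The pooled shares add up 6 guides, and places listed for more than 1 guide enter more than once.

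By guide, long genes held 15.4% of the sites of SG1 (12.2 to 19.1%) and 14.1% of those of SG2 (11.2 to 17.3%), both with intervals that include 16.4%. SG4 had 11.6% (9.06 to 14.6%), below it. SG3 had 6.12% (1.28 to 16.9%), SG7 14.3% (0.361 to 57.9%) and SG8 25% (10.7 to 44.9%), where few sites leave wide intervals. The intervals of SG1, SG2 and SG4 overlap each other.

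Within the long genes, the density of sites was lower the longer the gene class for each of the 3 guides with many sites. However, the intervals of all 3 long classes overlapped for each of these guides. SG2 had 0.182 sites per Mb in genes of 250 to 500 kb (exact Poisson 95% interval 0.132 to 0.245), 0.157 in genes of 500 kb to 1 Mb (0.103 to 0.230) and 0.0627 in genes over 1 Mb (0.0230 to 0.136). SG4 had 0.152 (0.107 to 0.211), 0.133 (0.0833 to 0.201) and 0.0627 (0.0230 to 0.136) in the same order. SG1 had 0.152 (0.107 to 0.211), 0.133 (0.0833 to 0.201) and 0.115 (0.0573 to 0.206). In protein-coding genes under 250 kb the densities were 0.228 for SG1 (0.195 to 0.264), 0.275 for SG2 (0.239 to 0.315) and 0.274 for SG4 (0.238 to 0.314). For all genes of 250 kb or longer together they were 0.139 for SG1 (0.108 to 0.176), 0.151 for SG2 (0.119 to 0.189) and 0.129 for SG4 (0.0991 to 0.164), each below the interval of the shorter genes. Outside protein-coding genes they were 0.116, 0.140 and 0.157. Base composition and matches to the guides, which also vary along the genome, were not analysed here.

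**Figure D1:**
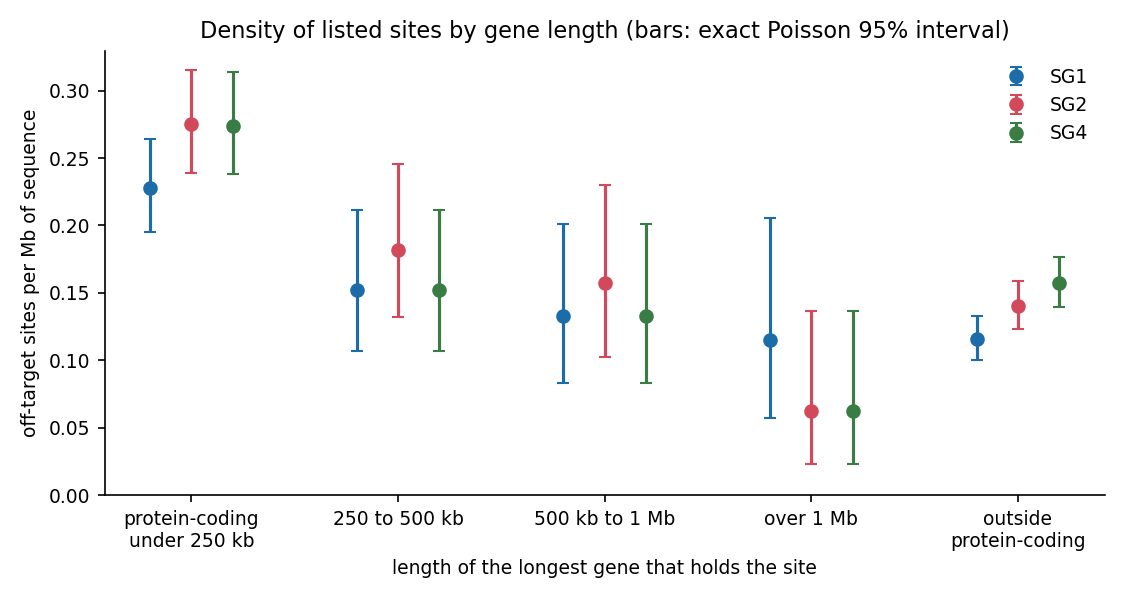
Off-target sites per Mb of sequence for SG1, SG2 and SG4 by the length of the longest protein-coding gene that holds the site, with sequence outside protein-coding genes at the right. Points are 1 library each and bars are exact Poisson 95% intervals; all 3 guides are highest in genes under 250 kb, and SG2 and SG4 fall to 0.0627 sites per Mb in genes over 1 Mb.

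The genes over 1 Mb show how thinly sites were spread. Of 69 such genes, 18 held a site (26.1%), against 60 of 245 genes of 500 kb to 1 Mb (24.5%) and 101 of 684 genes of 250 to 500 kb (14.8%). The longest annotated gene, RBFOX1 (2474 kb), a splicing regulator, held none. PTPRD, a receptor tyrosine phosphatase (2299 kb), DMD, the dystrophin gene (2220 kb), and DLG2, a synaptic scaffold (2173 kb), also held none in any of the 6 lists. The lowest count listed was 2, and a gene without a listed site may still have been cut at a lower level. The 5 longest genes with a site were CNTNAP2 (2304 kb), MACROD2 (2058 kb), LRP1B (1900 kb), GPC5 (1469 kb) and NAALADL2 (1370 kb). CNTNAP2, a neurexin-family adhesion protein, had 36 counts for SG4 and 4 for SG2, at places 1663854 bp apart. MACROD2, an ADP-ribose hydrolase, had 38 counts for SG2 and 19 for SG1. LRP1B, a lipoprotein receptor family member, had 8 counts for SG1. GPC5, a cell-surface heparan sulfate proteoglycan, had 12 for SG4, and NAALADL2 had 18 for SG8. All of these were under 1% of the PKLR count of their guide.

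Most member sites had low counts, as did most other off-target sites of the same guide. At or above 1% of the PKLR count lay 21 of 69 member sites of SG1 (30.4%, 19.9 to 42.7%), where 32.8% of all its off-target sites did. For SG2 there were 20 of 75 (26.7%, 17.1 to 38.1%) against 26.6% of all, and for SG4 19 of 64 (29.7%, 18.9 to 42.4%) against 29.0% of all. SG3 had 1 of 3 against 51.0% of all, SG8 3 of 7 against 32.1% of all, and SG7 0 of 1 against 0.0% of all. These shares are close to the background of each guide for SG1, SG2 and SG4, and too few sites remain to compare for the other guides. The median member site had 0.587% of the PKLR count for SG1, 0.244% for SG2 and 0.279% for SG4. In shorter genes the medians were 0.513%, 0.272% and 0.387%, and outside protein-coding genes 0.623%, 0.375% and 0.344%. Counts of 2 or 3 made up 6 of the SG1 member sites, 6 of those of SG2 and 8 of those of SG4.

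**Figure D2:**
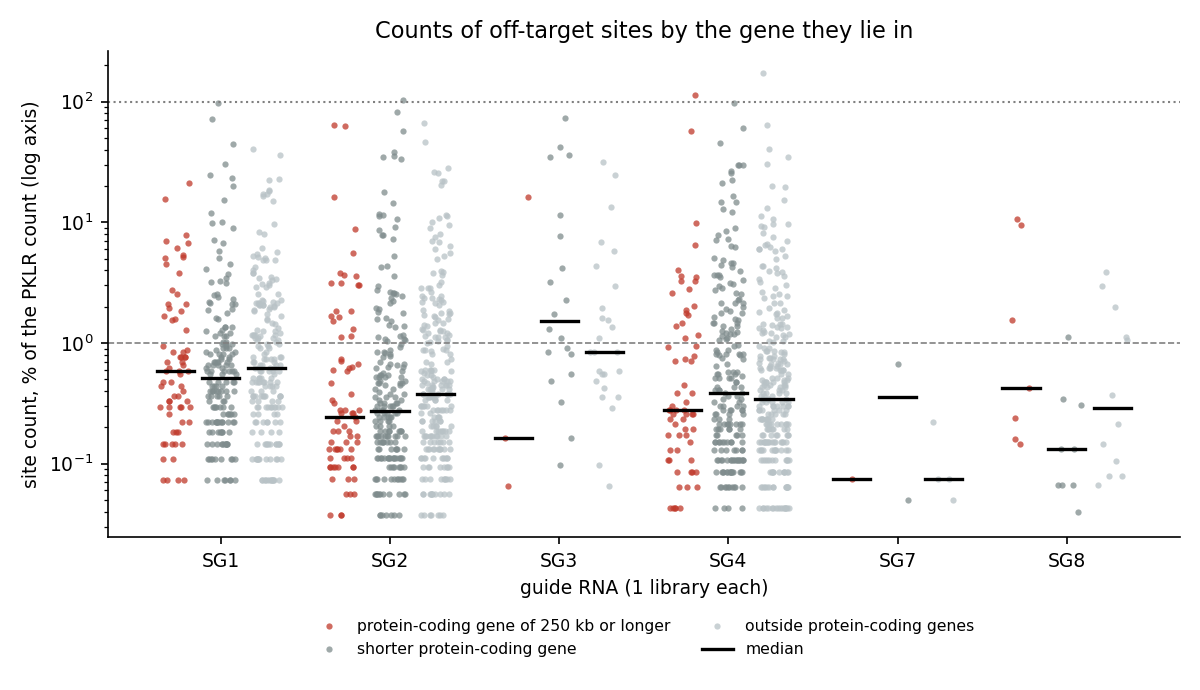
Each point is 1 off-target site, as a percent of the PKLR count of its guide on a log axis, by guide and by whether it lies in a protein-coding gene of 250 kb or longer, in a shorter one or outside them. Black bars are medians, the dashed line is 1% and the dotted line 100%; the 3 medians lie within 0.513 to 0.623% for SG1, 0.244 to 0.375% for SG2 and 0.279 to 0.387% for SG4.

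Summed over sites, long genes held 11.6% of the off-target counts of SG1 (11.2 to 11.9%), 15.3% of those of SG2 (15.0 to 15.5%) and 14.6% of those of SG4 (14.4 to 14.9%). They held 4.75% for SG3 and 6.12% for SG7. Intervals of count shares, also that of SG8 below, treat each count as independent and do not cover the spread between sites. SG8 stood apart, with 61.3% of its off-target counts (59.4 to 63.1%) in 7 member sites, while its shorter protein-coding genes held 6.13% in 9 sites. That share rested on 2 sites, in RBMS3 and ERBB4, which carried 88.9% of the member counts of SG8, and it was 23% without places that another guide also listed. For SG2, 2 sites in FOXN3 and MYO5B carried 61.6% of the member counts. Raising the length limit to 500 kb, which drops both genes, took the share of SG2 to 1.62%. For SG4 the share was 8.68% without places that another guide also listed, and for SG3 it was 0.0790%.

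SG2 had 2 long-gene sites above 60% of its PKLR count of 5335. The site in FOXN3, a forkhead transcriptional repressor (chromosome 14, 89294181), had 3384 counts, or 63.4% (exact interval 60.7 to 66.2%). The site in MYO5B, a myosin motor of membrane recycling (chromosome 18, 49840992), had 3327 counts, or 62.4%, and their intervals overlap. The gene SNHG22, a non-coding host gene of small nucleolar RNAs, also spans the MYO5B position. After these came DTNA, which encodes dystrobrevin alpha of the dystrophin complex (chromosome 18, 34521789), with 872 counts (16.3%). COL4A6, a basement membrane collagen (chromosome X, 108202187), had 471 counts (8.83%), and ZNF423, a zinc-finger transcription factor (chromosome 16, 49640998), had 295 (5.53%). Of the member sites of SG2, 2 were among its 10 most counted off-target sites.

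SG4 had 2 member sites among its 10 most counted off-target sites. The one in SLC44A5, a member of the choline-transporter-like family (chromosome 1, 75274525), ranked 6 with 2654 counts, or 57.0% of its PKLR count of 4654 (54.4 to 59.8%). The sites named next had under 10% of the PKLR count. GABBR2, a subunit of the metabotropic GABA receptor (chromosome 9, 98292435), had 458 counts (9.84%) and ENTREP2 (chromosome 15, 29565271) had 300 (6.45%). RUNX1, a transcription factor of blood formation (chromosome 21, 34862656), had 189 counts (4.06%), at a place that the antisense gene RUNX1-AS1 also spans. CAMKMT, which methylates calmodulin (chromosome 2, 44388693), had 166 (3.57%).

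SG1 had no long-gene site among its 10 most counted off-target sites and 10 among the 50 most counted. The highest lay in NRG3, a neuregulin and ligand of the receptor ERBB4 (chromosome 10, 82501531), with 582 counts, or 21.3% of the PKLR count of 2728 (19.5 to 23.3%). CADPS2, a factor of dense-core vesicle release (chromosome 7, 122383972), had 424 counts (15.5%). FRMD5 (chromosome 15, 43895281) had 215 (7.88%) and SH3KBP1, an endocytic adaptor (chromosome X, 19683527), had 190 (6.96%). GRIN2B, a subunit of the NMDA glutamate receptor (chromosome 12, 13614424), had 185 (6.78%). The intervals of the last 3 overlap.

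The guides with few off-target sites had few members. SG3 had 498 counts in CDKAL1, a tRNA-modifying enzyme (chromosome 6, 21007900), or 16.1% of its PKLR count of 3087. Its other member sites had 5 counts in GMDS, an enzyme of GDP-fucose synthesis, and 2 in RBMS3. SG8 had 807 counts in RBMS3, an RNA-binding protein gene (chromosome 3, 29669970), and 712 in ERBB4, a receptor tyrosine kinase (chromosome 2, 212497988). These were 10.7% (9.93 to 11.5%) and 9.43% (8.72 to 10.2%) of its PKLR count of 7549. The others were SAMD12 with 116 counts, the myosin gene MYO3B with 32, NAALADL2 with 18, CDKAL1 with 12 and PLXDC2 with 11, all at or under 1.54%. SG7 had 1 member site, with 3 counts at the same ERBB4 position as SG8.

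Genes were grouped into 16 lists by patterns in their symbols, each list named for what its genes encode. The lists took in 400 of the 998 long genes, and their genes held sites in 88 cases. A list need not hold every gene of its class. For example, the actin-binding SVIL and the formin FHOD3 are in no list. The background is that 17.9% of all 998 genes held a site of any guide, with a median member level of 0.330% of PKLR. Guides are pooled in these counts, list genes differ in length, and longer genes hold more sites, so the lists are described and not tested.

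Of the receptor tyrosine kinases and neuregulins, which relay growth signals across the membrane, 4 of 8 long genes held 9 sites, or 1.6 per Mb against 0.440 per Mb over all long genes. They were NRG3, ERBB4, NTRK3, the neurotrophin-3 receptor, and ALK. NTRK3 had 57 counts for SG1 (2.09%) and 68 for SG4 (1.46%), at places 29541 bp apart. ALK had 9 counts for SG1. Of the 9 sites, 5 lay at the shared places in ERBB4 and NRG3 described below, so they stand for fewer separate places. ROR1, NRG1, NTRK2 and IGF1R held none. The 4 of 8 and the density hold for these 8 genes, and any other long receptor tyrosine kinase gene was not in this list.

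Of the RNA-binding proteins, 5 of 11 genes held 8 sites. Besides RBMS3, the stem-cell regulator MSI2 had 168 counts for SG1 (6.16%) and 161 for SG2 (3.02%), at places 196053 bp apart. The CELF-family splicing factor CELF4 had 90 counts for SG2 (1.69%), RBFOX3, the gene of the neuronal marker NeuN, had 15 and CELF2 had 6. Of the transcription factors, 12 of 51 genes held 13 sites. FOXN3, ZNF423 and RUNX1 led. GLI2, an effector of Hedgehog signalling, had 169 counts for SG2 (3.17%) and ZNF385D 140 for SG1 (5.13%). CUX2 had 70 and 2 counts for SG2. NFIB, RARB, CREB5, CAMTA1 and ERG had between 5 and 18.

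Genes of the cytoskeleton, its motors and the dystrophin complex held 13 sites in 9 of 39 genes, and 7 of those sites reached 1% of PKLR. MYO5B and DTNA led. The axonemal dynein DNAH14 had 152 counts for SG4 (3.27%) and the muscle myosin MYO18B 104 for SG1 (3.81%) and 12 for SG4. The microtubule protein MAP2 had 64 counts for SG4, and SGCD, a sarcoglycan, 43 for SG1. DMD itself held no site. Of the serine and threonine kinases and their subunits, 8 of 25 genes held 10 sites, with a median of 1.66% of PKLR. PRKCB, a protein kinase C, had 161 counts for SG2 (3.02%), CAMK1D 123 and 8 for SG1, and MAST4 94 for SG4. STK3, a Hippo pathway kinase, had 87 and CDK14 81 for SG2. PRKG1, the kinase activated by cyclic GMP, had 79 for SG4, and NEK10 57 for SG1.

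Neuronal membrane proteins make up many of the longest genes. Of the neural adhesion proteins and synapse organisers, 7 of 38 genes (18.4%, 7.74 to 34.3%) held 9 sites, or 0.277 per Mb against 0.440 over all long genes. The list had a median gene length of 857 kb. The median of its sites was 0.131% of PKLR. Of the genes in this list, only NTM, a neurotrimin, reached 1%, with 60 counts for SG2. That site had a neighbour 39 bp away with 3 counts. DSCAM had 10 counts, CNTNAP5 and ASTN2 had 7 each, SDK2 6 and ADGRL2 4. CLSTN2, which encodes a calsyntenin, was in no list and had 46 counts for SG1 (1.69%). Of the glutamate and GABA receptors, 5 of 19 (26.3%, 9.15 to 51.2%) held a site. After GABBR2 and GRIN2B these were GRIK4 with 20 counts, GRIA3 with 16 and GRM5 with 2. Of the ion channels and their subunits, 5 of 38 (13.2%, 4.41 to 28.1%) held 6 sites. The calcium channel subunit CACNA2D3 had 203 counts for SG2 (3.81%), inside which the nested gene LRTM1 also lies at the site. The mechanosensitive channel PIEZO2 had 98, the potassium channel KCNMA1 51 for SG4 and 5 for SG2, the ryanodine receptor RYR3 43 and TRPM3 2.

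Other adhesion and matrix genes had mostly low counts. Of the cadherins, protocadherins and catenins in the list, 4 of 15 held 6 sites, none at 1% of PKLR. CDH4 had 34 and 7 counts, CDH8 had 13, DCHS2 had 8 and 6, and CDH13 had 6. Collagens, laminins and matrix proteases held 7 sites in 7 of 32 genes. After COL4A6 came the metalloprotease ADAMTS17 with 33 counts, LAMA2 with 18, COL5A2 with 13, LAMA3 and COL19A1 with 11 each and COL23A1 with 5. Of the axon guidance genes 1 of 20 held a site, the netrin receptor UNC5C with 14 counts. Of the receptor tyrosine phosphatases 1 of 8 did, PTPRN2 with 145 counts for SG1 (5.32%). Of the phosphodiesterases 1 of 10 did, PDE1C with 16 counts.

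The exchange factors and activating proteins of small GTPases held 11 sites in 8 of 48 genes, with TBC1D22A first, then ASAP1 at 34 counts for SG2 and 6 genes with 4 to 9 counts. Membrane scaffolds and ankyrins held 6 sites in 5 of 23 genes. The polarity gene PARD3B had 39 counts for SG2 and 35 for SG1 (1.28%), PATJ had 21, PARD3 5, and CASK and RIMS1 2 each. Of 24 genes named at common fragile sites, 8 (33.3%, 15.6 to 55.3%) held 12 sites, with a median of 0.587% of PKLR and 2 sites at 1% or more. Their density was 0.349 sites per Mb, against 0.440 over all long genes. Besides CNTNAP2, MACROD2, LRP1B, NAALADL2 and PARD3B, they included WWOX with 13 counts for SG1 and DPYD with 3. FHIT, DMD, DLG2 and PDE4D were among the 16 that held none.

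**Figure D3:**
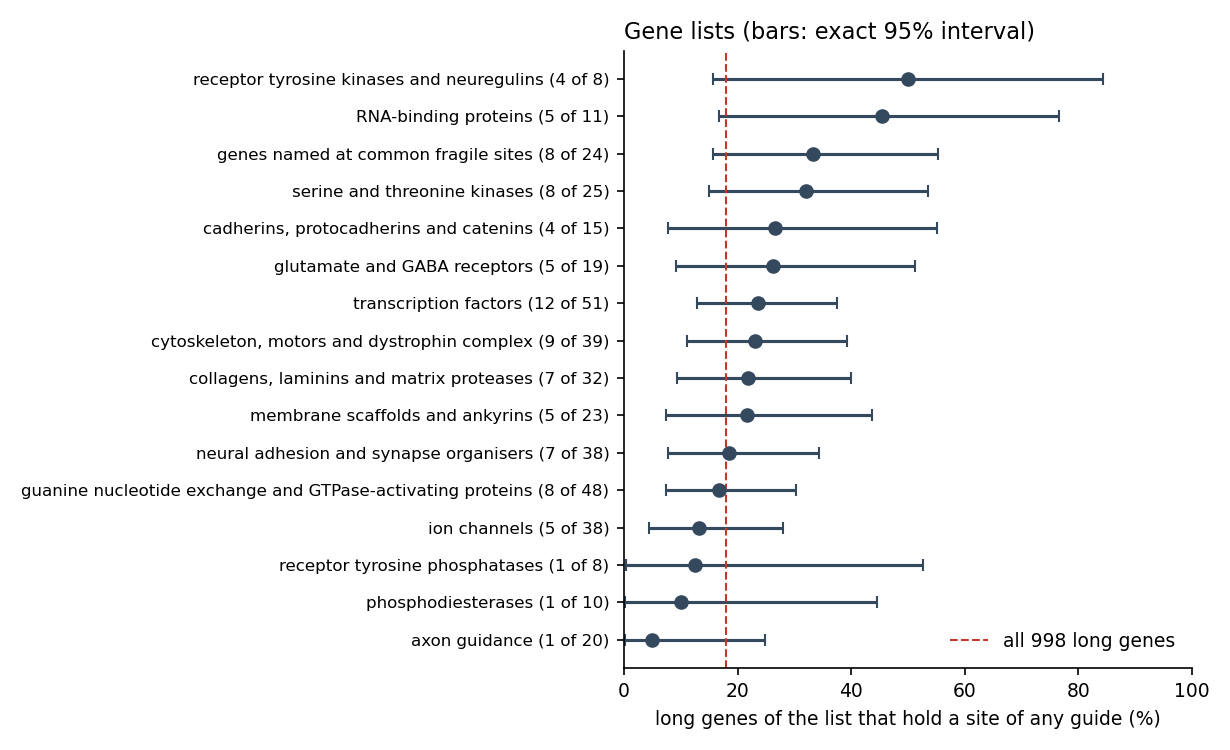
Percent of the long genes of each list that hold a listed site of any guide, with exact 95% intervals and the numbers of genes beside each name. The dashed line is the 17.9% of all 998 genes, and all 16 intervals include it.

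The 598 long genes outside these lists had sites in 91 cases. Besides SLC44A5, CADPS2 and CDKAL1, they included SVIL, an actin-binding protein (195 counts, SG2), and DGKB, a diacylglycerol kinase (192, SG2). SYN3, a synapsin, had 168 counts for SG2, and PCSK5, a proprotein convertase, had 163 for SG4. These genes were chosen after their values were seen.

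Of the 179 hit genes, 147 held 1 site, 26 held 2, 3 held 3 and 3 held 4. The hit genes had a median length of 476 kb, against 382 kb for the long genes without a site. Sites of more than 1 guide lay in 25 genes, with a median length of 688 kb, and in 22 of them at different places. TBC1D22A, a Rab GTPase-activating protein (413 kb), had sites of 3 guides at 4 places: 69 counts for SG1 (2.53%), 31 and 10 for SG2 and 8 for SG4. TRAPPC9, a trafficking complex subunit (731 kb), had 33 and 12 counts for SG2 and 83 and 2 for SG4, the last pair 26 bp apart. SASH1 had 15 counts for SG2 and 14 and 10 for SG4. In MYO5B all 3 sites were of SG2, with 14 counts at 532 bp and 32 counts at 6447 bp from the 3327-count site.

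In other genes, a site of 1 guide lay at a different place from a site of another guide with fewer counts. DTNA had 75 counts for SG1 (2.75%) and 872 for SG2, at places 108119 bp apart. RPS6KC1 had 151 counts for SG4 (3.24%) and 16 for SG1. SCFD2, a vesicle-docking factor, had 121 for SG4 (2.60%) and 2 for SG1. FHOD3, a formin, had 61 for SG2 and 13 for SG4, and CDK14 had 81 for SG2 and 5 for SG4. Sites with under 20 counts for both guides also lay in DPP6, DCHS2, RPH3A and GSE1. The smallest gap between guides at different places was 6468 bp, in CDH4.

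**Figure D4:**
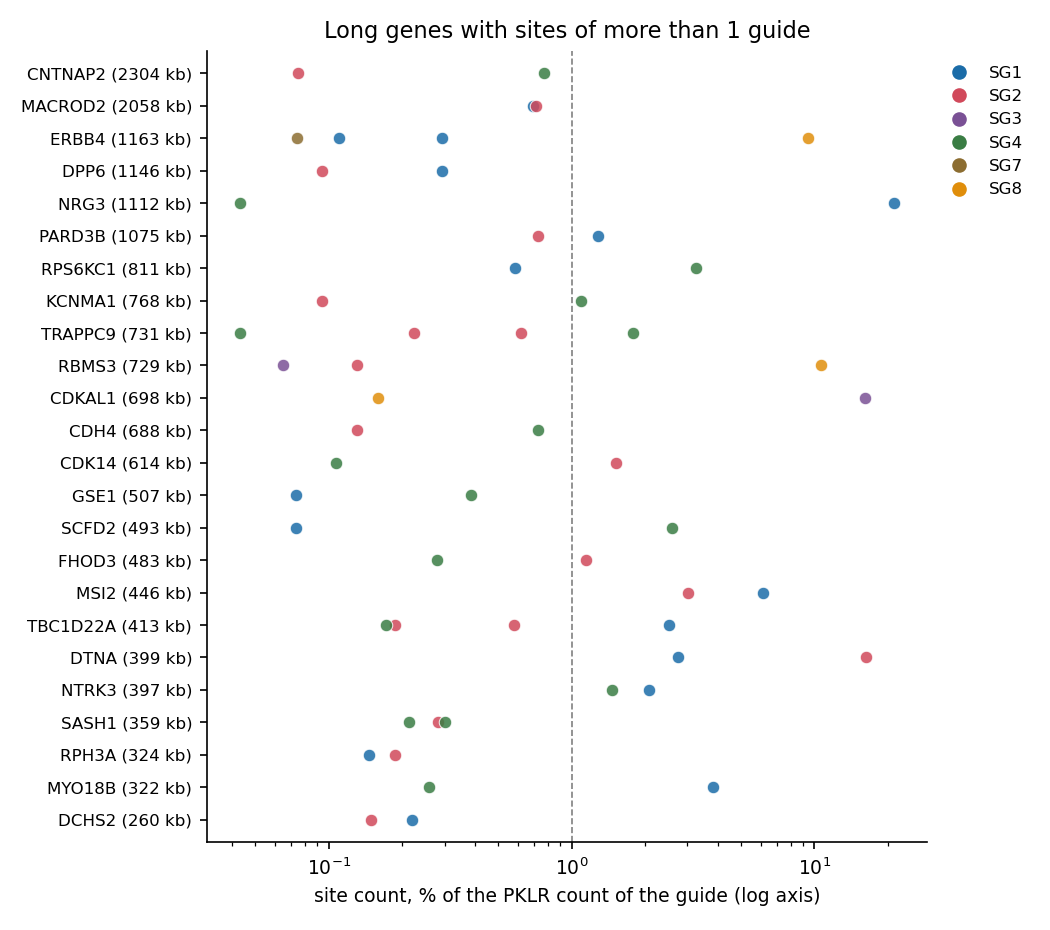
The 24 named long genes with sites of more than 1 guide, in order of length, with each site's count as a percent of its guide's PKLR count on a log axis and colours for guides. Only MSI2, DTNA and NTRK3 have sites of 2 guides to the right of the dashed line at 1%.

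At 5 places in long genes, 11 member sites were listed for more than 1 guide within 100 bp, which is 5.02% of member sites against 2.72% of other off-target sites. Each place enters once per guide, and with so few places the difference between these shares was not tested. The 4 places named here were each at the same base in every list. The ERBB4 place (212497988) had 712 counts for SG8, 3 for SG7 and 3 for SG1. The RBMS3 place had 807 for SG8 and 2 for SG3, and the CDKAL1 place 498 for SG3 and 12 for SG8. The NRG3 place had 582 for SG1 and 2 for SG4. Each had 1 guide with 498 or more counts and the others at 12 or fewer, and whether the low counts were carried over between libraries was not tested. ERBB4 also had a separate SG1 site with 8 counts, 980423 bp away, and RBMS3 a separate SG2 site with 7 counts, 122962 bp away.

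Member sites lay throughout the genes. The strand, and so the 5′ end, came from RefSeq's promoter table (GRCh38) for 148 of the 179 hit genes, which covers 183 site and gene pairs of 220. The median distance from the annotated 5′ end was 265 kb, and 148 of 183 (80.9%) lay more than 100 kb from it. In genes of 250 kb or longer most positions lie that far from the 5′ end, so this share mainly reflects the length limit. By successive stretches of 20% of gene length from the 5′ end there were 34, 27, 46, 29 and 47 sites. The first stretch held 18.6% (13.2 to 25%) and the last 25.7% (19.5 to 32.6%), intervals that include 20% for both. The middle stretch held 25.1% (19 to 32.1%).

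**Figure D5:**
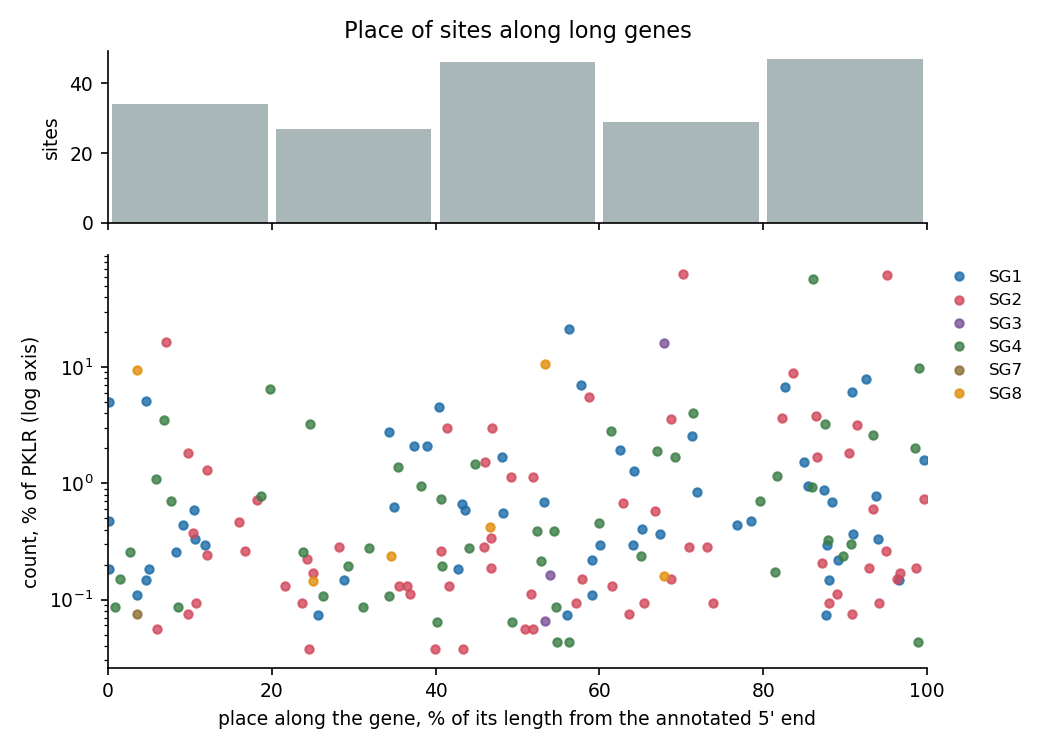
Upper panel, numbers of member sites (34, 27, 46, 29 and 47) in successive stretches of 20% of gene length from the annotated 5′ end. Lower panel, each site's count as a percent of its guide's PKLR count on a log axis against its place along the gene; sites above 10% of PKLR lie from early in the gene (DTNA for SG2, 7.15% along) to late (MYO5B, 95.1% along).

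Of the 183 pairs, 3 lay within 1 kb of the 5′ end, all of SG1. HS6ST3, a heparan sulfate sulfotransferase, had 137 counts (5.02%) at 761 bp from it (chromosome 13, 96090868). PRIM2, the large primase subunit, had 13 counts at 739 bp, where the gene RAB23 overlaps, and BCAR3 had 5 counts at 401 bp. No member site lay closer than 401 bp to either end of its long gene, so counting positions from 0 or from 1 would move no member out. Distances of other off-target sites from long genes are not given here. In all, 22 member sites also lay in an annotated gene that was not among the long genes. A further site, of SG2 with 15 counts, was in 2 long genes at once, SH3RF3 and RANBP2.

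The length limit itself separated genes that were alike in length. The hit genes just inside it were SIL1 (252 kb, 12 counts, SG2) and MCTP2 (253 kb, 53 counts, SG1). Those just outside were CEP85L (249 kb, 29 counts, SG2) and ATP8A1 (249 kb, 2 counts, SG2).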

How the data were processed

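GUIDE-seq site lists of 6 HEK293 samples, 1 per guide, were used as deposited. Per the file headers, each list gives a position and a whole-number count per site, which the authors deposited without normalization. The authors also deposited a ratio of each count to the PKLR count (for SG4, to the most counted site), which was not used further. The submitters' processing notes name hg38; the aligner, the site caller and any filter are not given in these sources. Positions were looked up among RefSeq genes (GRCh38, patch release 14) with 19970 protein-coding genes on chromosomes 1 to 22 and X. Of 1626 listed sites, 8 inside PKLR and 2 on other sequences were left out. Total listed counts (4079 to 79227 per library) cover listed sites and are not sequencing depth.

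With 1 library per guide nothing was tested. Exact Clopper-Pearson 95% intervals are given for shares, and densities have exact Poisson intervals; percents of PKLR have binomial ones. Because amplified reads do not each stand for a molecule, intervals cover counting error only. Members, gene lists and naming rule were chosen with earlier results of these data known. Named are each guide's 5 most counted member sites (all for SG3, SG7 and SG8; for SG4, the 5 after its most counted one), shared places, genes of more than 1 guide or with 4 sites, the 5 longest hit genes, the 3 most counted sites of each list and the genes next to the length limit. CAMKMT and CDKAL1, which are not kinases, were taken out of the kinase list after their values were seen. Some items within the naming rule, the most counted SG4 member site among them, are not reported here, but all stay in counts and sums. Alternatives were gene length limits, minimum counts, other PKLR thresholds, leaving out shared sites, merging sites within 100 bp, counting only sites in 1 long gene and adding long non-coding RNA genes. Look-up code was checked on simulated sites. The code ran in Python 3.11.15 with scipy 1.17.1, pandas 2.3.3, numpy 2.4.6 and, for figures, matplotlib 3.10.9.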

Additional observations from a re-analysis of the deposited data

How the results depend on the processing

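Of 187 values recomputed, 124 stayed inside their counting interval (numbers of sites and genes, inside a 1.5-fold range) and 63 moved. Intervals of count shares are narrow, so small changes count as moved. The SG4 count share did so from 14.6% to 14.9% with at least 1% of the PKLR count per site. The tally thus depends on interval width as well as on the size of a change. Merging sites within 100 bp and keeping only sites in exactly 1 long gene moved none of the values recomputed under them. Both settings changed few sites: merging took SG2 from 75 to 74 members and SG4 from 64 to 63. Only 1 member site lay in 2 long genes, so neither setting could move much. A limit of 200 kb gave long-gene site shares of 19.2% (SG1) and 16.2% (SG4), 6 sites for SG3, and count shares of 12.9% (SG1), 16.5% (SG2), 6.47% (SG3) and 17.3% (SG4). A limit of 300 kb gave count shares of 11% (SG1), 14% (SG2) and 14.2% (SG4). A limit of 500 kb left 33, 32, 28 and 4 sites for SG1, SG2, SG4 and SG8 in 78 genes over all guides, with site shares of 7.37% (SG1), 6.0% (SG2) and 5.08% (SG4). Count shares were then 6.11% (SG1), 1.62% (SG2), which leaves out FOXN3 and MYO5B, 12.1% (SG4) and 55.6% (SG8). A lower limit takes in more sequence and a higher one less, so these shares can rise or fall by construction. Genes of 500 kb to 1 Mb made up 5.46% of the sequence and genes over 1 Mb 3.16%, against 16.4% for all long genes. With at least 10 counts per site, members numbered 44 (SG1), 44 (SG2), 1 (SG3), 41 (SG4) and 0 (SG7, with site and count shares of 0%). Densities in genes of 250 to 500 kb were then 0.102 (SG1), 0.123 (SG2) and 0.0932 (SG4) per Mb, and in genes of 500 kb to 1 Mb 0.0785 (SG1) and 0.0665 (SG2); fewer sites enter by construction. With at least 1% of the PKLR count, members numbered 21 (SG1), 20 (SG2), 1 (SG3), 19 (SG4), 0 (SG7) and 3 (SG8) in 61 genes, with count shares of 11% (SG1), 15.6% (SG2), 14.9% (SG4) and 64.2% (SG8). Without sites listed for more than 1 guide, long genes held 10.8% of the counts of SG1, 17.5% of SG2, 0.0790% of SG3, 8.68% of SG4 and 23% of SG8. SG3 then had 1 member site and SG8 4, and SG7 had 0, with site and count shares of 0%; the share of members at 1% of PKLR was 0% for SG3. Adding long non-coding RNA genes gave count shares of 12.2% (SG1), 17.6% (SG2), 15.8% (SG4) and 66.7% (SG8). A threshold of 0.5% of PKLR was passed by 53.6% of SG1 members, and one of 2% by 16.0% of SG2 and 18.8% of SG4 members. No paired analysis was possible because no guide has a replicate, which also leaves no replicate to drop. SG7 had no off-target site at 1% of PKLR and so gave no share there.

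Limits are the same throughout: 1 library per guide, no control library, counts of an unstated kind, and lists with no count below 2 and any filter unstated. Site shares of SG3, SG7 and SG8 rest on 49 or fewer sites. Gene ends come from 1 annotation.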
